A study of Mus musculus with 6 samples.

Results

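The lysosome is followed here through 35 genes, picked by symbol from the 56748 genes in the files, in 4T1 mouse mammary carcinoma cells. All 35 symbols were found among the deposited identifiers through the GENCODE M21 annotation. They were sorted by role into 8 proteases (7 cathepsins and legumain), 7 glycosidases, 3 genes of sphingolipid hydrolysis and progranulin, 9 membrane and sterol proteins and 8 subunits of the proton pump. The control group was 3 samples of wild-type 4T1 cells, and samples of both groups are listed as collected at 48 h. The treated group was 3 samples of the same wild-type line that had been incubated with 125 µg/mL of Au/MoS2/Bi2S3 heterojunction particles overnight and then received near-infrared (NIR) light for 8 min, with 24 h in culture before the particles and 24 h after the light. Cells given particles alone or light alone were not analysed here, so the particles and the light cannot be told apart. Both groups are 1 cell line, and the series describes its RNA as pooled from 3 individuals without saying whether samples of a group were separate cultures. The p-values below therefore rest on how these samples scatter, and that scatter may be technical.

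Lysosomes are acidic organelles in which cells break down proteins, glycans and lipids delivered by endocytosis and autophagy, and particles taken up by cells commonly end there. Soluble hydrolases reach them from the Golgi, many on mannose 6-phosphate receptors, while the limiting membrane is lined by heavily glycosylated proteins such as LAMP1 and LAMP2. Acidity is kept by the vacuolar ATPase, whose V1 sector splits ATP in the cytosol and turns the V0 sector, a ring of proteolipids that carries protons across the membrane. Many of these genes share an E-box element in their promoters, called CLEAR, to which the transcription factor TFEB and its relatives bind.

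Values are the deposited FPKM, in name fragments per kilobase of gene and per 1e6 fragments. The divisor they imply was not the library's own number of reads: it was 0.719 to 0.839 of the reads recovered in controls and 1.32 to 1.33 of those in treated samples. Where 3 values are given for a group, they are those of samples 1, 2 and 3 in that order. Between 32.6 and 38.1 M reads (1e6) lay at genes in each library, worked back from the FPKM steps, and every tested lysosomal gene had at least 468 of them in each library. A median-of-ratios factor computed from the deposited values was 1.01 in every library, so the typical gene sat at the same level in all, while the library totals were 450409 to 532583 FPKM in controls and 235757 to 241953 in treated samples. A gene is therefore read as higher or lower relative to the typical gene. Fold changes over all genes ran with abundance: among the 10% of tested genes with the lowest levels the median was 0.52 on the log2 scale, and among the top 10% it was -0.93, and 21 of the lysosomal genes tested belonged to that last set. The median SD between replicates on the log2 scale was 0.27 in controls and 0.05 in treated samples for the lysosomal genes, against 0.27 and 0.07 over all genes. Of 8 epithelial markers Cdh1, Cldn4, Krt7 and Krt14 stayed under 1 FPKM, and the 4 tested all fell: Krt18 from 861 to 286 FPKM between means, Krt19 from 512 to 126, Krt8 from 480 to 351 and Epcam from 4.99 to 0.896. Their summed level was 1536 to 2262 FPKM in controls and 741 to 777 in treated samples. Epcam was called lower under all 4 scalings described below, whereas Krt8 was called higher under 2 of them. Of 10 macrophage and leukocyte markers, 9 were under 1 FPKM in all samples (all but Cd14), and Adgre1, Itgam, Tyrobp, C1qa and C1qb were listed at 0 in all. Their summed level was 3.02 to 5.58 FPKM in controls and 4.49 to 5.55 in treated samples, so Cd68 and Gpnmb, which are also used as macrophage markers, were measured where the defining genes of those cells were at or near 0. In such bulk samples, fewer cells of a type and less RNA per cell cannot be told apart. Summed fibroblast markers went from between 92.0 and 413 FPKM in controls to between 22.6 and 24.0 in treated samples, nearly all of it Col3a1. Pdgfra stood at 1.16 and 1.21 FPKM in the control and treated means, and Pdgfrb at 0.811 and 0.578. Dcn, Lum and Thy1 were under 1 FPKM in all samples. The part of either marker list in the results below was not tested.

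In treated cells 13 of 17 tested transcripts of soluble lysosomal hydrolases and their activators were lower at the deposited scaling, while most of the membrane proteins and proton pump subunits did not pass the test. By limma on log2(FPKM + 1), with adjustment over all 11118 genes tested and a call at an adjusted p under 0.05, 16 of 34 tested lysosomal genes fell and 0 rose. The test assumes the same spread in both groups, which these groups did not have, so calls near the threshold such as Hexa, Gusb and Ctsc are less certain than their p. Among all genes tested 28.3% fell and 27.9% rose, 56.1% in either direction. Beside these 0 rises, 2 genes with a positive change, Naglu and Atp6v1d, had an unadjusted limma p under 0.05. The falls were 6 of 7 tested proteases, 4 of 7 glycosidases, 3 of 3 sphingolipid and progranulin genes, 2 of 9 membrane and sterol proteins and 1 of 8 pump subunits. The median log2 fold change of the tested lysosomal genes was -0.32, against -0.01 over all genes. However, 21 of them were among the most abundant 10% of genes tested, whose median was -0.93. With the trend for GC content, gene length and level removed, as described below, the medians were 0.03 for the lysosomal genes and -0.01 over all genes. By sub-group the median as deposited was -0.90 for the proteases, -0.69 for sphingolipid hydrolysis and progranulin, -0.33 for the glycosidases, -0.06 for the pump and 0.14 for membrane and sterol proteins. Every treated sample lay below every control for 18 of the 34 genes and above for 3, where 34.1% and 33.6% of all genes did so. The count of falls depended on the samples used: it was 10 without treated 3 (19.2% of all genes), 11 without treated 1 (19.6%) or treated 2 (20.1%), 12 without control 1 (21.8%), 18 without control 2 (32.7%) and 17 without control 3 (34.0%). Without a filter on low values it was 12 (9.80%), with sample weights by group 15 (26.8%), and with a block for the replicate number 13 (24.0%).

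**Figure D1:**
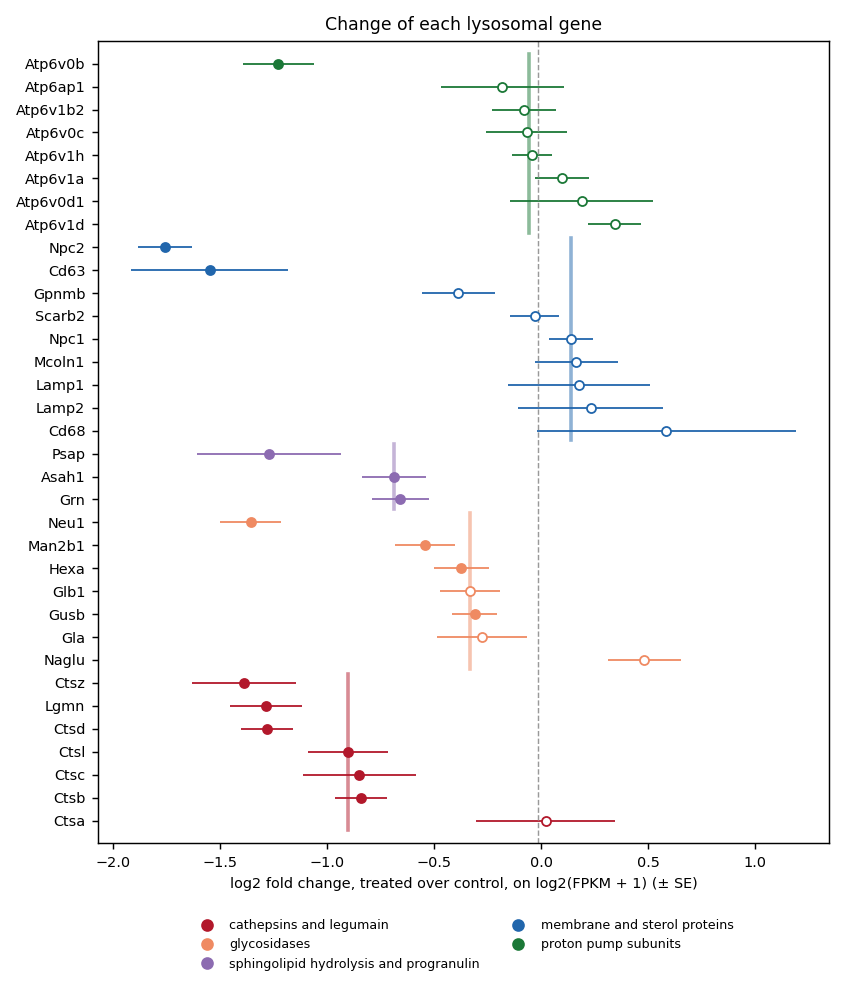
Log2 fold change (treated over control, on log2(FPKM + 1), points, with standard error as bars) of the 34 tested lysosomal genes by sub-group; filled points passed the test, coloured vertical lines are sub-group medians and the dashed line is the median of all genes tested. The proteases lie around a median of -0.90, whereas 7 of 8 pump subunits lie near 0 and Atp6v0b stands apart at -1.23.

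The number of these genes called lower depended on the scaling between libraries. With scaling by library size only, the median of all genes moved to 0.60, and 10 lysosomal genes were called higher and 6 lower, where 54.3% and 10.3% of all genes were. With quantile normalization 9 were higher and 6 lower (27.2% and 24.5% of all genes), and after removal of the trend with GC content, gene length and level 5 were higher and 6 lower (22.3% and 22.9%). Only Npc2, Neu1 and Atp6v0b were called lower under all 4 scalings. Naglu and Atp6v1a were called higher under the 3 alternatives and not at the deposited scaling. The gap between the sub-groups kept its sign: the protease median lay below the pump median by 0.85 on the log2 scale as deposited, by 0.89 with library size, by 0.66 with quantile normalization and by 0.41 with the trend removed.

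**Figure D2:**
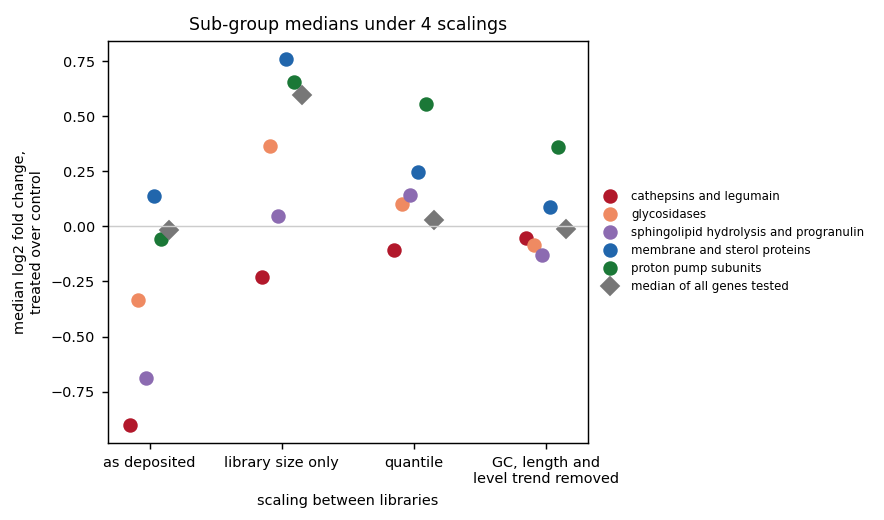
Median log2 fold change of each sub-group (circles) and of all genes tested (diamonds) under the deposited scaling, scaling by library size only, quantile normalization, and removal of the trend with GC content, gene length and level. The medians move up with library size, where all genes sit at 0.60, and the pump stays above the proteases under each of the 4.

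Of the tested proteases 6 fell, and only Ctsa was not called. Ctsd encodes cathepsin D, the main aspartic protease of the lysosome (ENSMUSG00000007891, GRCm38 chromosome 7, 142375911 to 142388038, minus strand), and had the smallest p among them. It stood at 387, 373 and 341 FPKM in the controls and 152, 148 and 150.0 in the treated samples. Controls and treated samples did not overlap, and the spread within each group was small beside the gap. Cathepsin D transcripts changed by -1.28 ± 0.12 SE on the log2 scale (limma adjusted p = 0.000542, n = 3 per group), and by -0.54 with library size (0.0177), -0.18 with quantile normalization (0.36) and -0.23 with the trend removed (0.223). Ctsz, which encodes the carboxypeptidase cathepsin Z (chromosome 2, 174427493 to 174439039, minus strand), had the highest mean level of the sub-group. It measured 782, 634 and 1168 FPKM in the controls and 322, 321 and 309.9 in the treated samples. Control 3 was the highest of the controls, yet even control 2, the lowest, lay above all treated samples (log2 change of -1.39 ± 0.24 SE, limma adjusted p = 0.00416). Once the trend with GC, length and level was taken out, it was at 0.09 (limma adjusted p = 0.788).

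Lgmn encodes legumain, which cuts after asparagine and also processes cathepsins. It stood at 211, 180.5 and 265 FPKM in the controls and 87.5, 88.4 and 88.4 in the treated samples, 2.49-fold lower between means (limma adjusted p = 0.00143). The call was lost with quantile normalization (-0.31, limma adjusted p = 0.0815) and with the trend removed (-0.43, 0.0638). Ctsb and Ctsl, the abundant cysteine cathepsins B and L, fell to a similar degree: Ctsb went from 383 ± 18.3 (SD, n = 3) to 213 ± 3.48 FPKM (1.80-fold lower) and Ctsl from 396 ± 80.2 to 208 ± 9.22 (1.90-fold lower). Under quantile normalization both had log2 fold changes above 0, of 0.27 and 0.14, and neither was called under any of the other 3 scalings. The exons of Ctsb share 774 bases with those of Fdft1 on the opposite strand, itself at 36.3 to 49.2 FPKM over controls and 8.34 to 8.80 over treated samples, and no strand setting is given. Ctsc encodes cathepsin C, or dipeptidyl peptidase 1, the activator of granule proteases in leukocytes. It was scarce at 7.75, 11.2 and 4.78 FPKM in the controls and 3.70, 3.71 and 3.73 in the treated samples. Its fall (limma adjusted p = 0.0336) was not called without control 1 or without any 1 of the treated samples, nor with library size (-0.23).

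Ctsa was the protease that did not follow the others. It encodes cathepsin A, a carboxypeptidase that also holds the sialidase and beta-galactosidase in a stable complex. Its values of 109, 151 and 60.3 FPKM in the controls enclosed the 105, 97.5 and 101 of the treated samples (log2 change of 0.02 ± 0.32 SE, limma adjusted p = 0.959). Within each library the ratio of Ctsd to Ctsa, which a single factor per library does not move, was 3.56, 2.48 and 5.66 in the controls and 1.46, 1.52 and 1.48 in the treated samples. Ctsh, the gene of the aminopeptidase cathepsin H, did not pass the filter and has no test. It had 10, 8 and 0 reads in the controls and 9, 5 and 0 in the treated samples. A count of 0 allows up to 0.0285 FPKM in control 3 and 0.0151 in treated 3 (3 reads, counting error only).

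**Figure D3:**
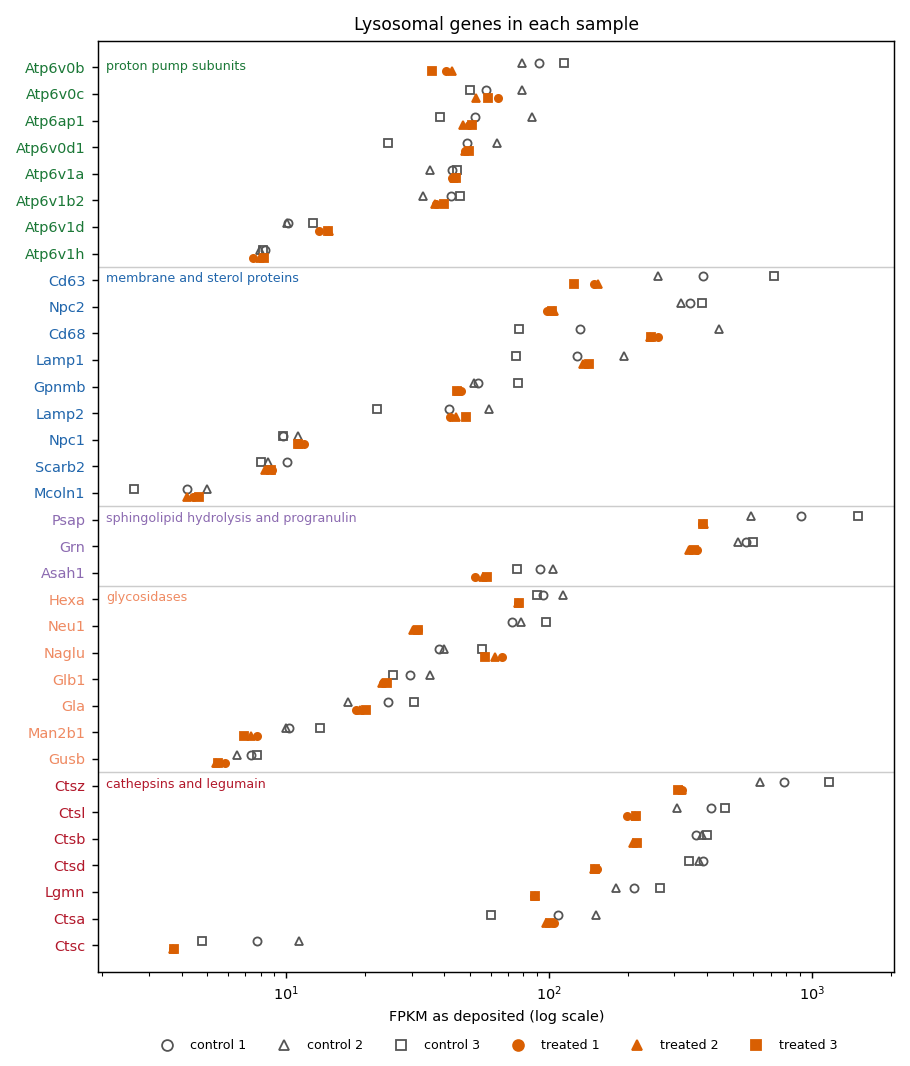
FPKM of 34 lysosomal genes in each sample on a log axis (open grey symbols for controls, filled orange symbols for treated samples, with shape giving the sample number; Ctsh, near 0, is left out). Treated samples lie close together for nearly every gene, whereas controls spread widely for genes such as Cd68, from 77.0 to 444 FPKM.

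Glycosidases take sugars off glycoproteins and glycolipids, and of their 7 transcripts 4 fell, Neu1 with the smallest p. Neu1 encodes the lysosomal sialidase (chromosome 17, 34931253 to 34935953) and stood at 72.2, 78.0 and 97.5 FPKM in the controls. The treated samples gave 31.8, 30.5 and 31.7 FPKM. The groups were far apart relative to their spread, with a log2 fold change of -1.36 ± 0.14 SE (limma adjusted p = 0.000712). Neu1 was called lower under all 14 alternatives, between -1.45 and -0.63. Hexa, the alpha subunit gene of beta-hexosaminidase and the most abundant of the sub-group, went from 95.2, 113 and 90.4 FPKM in the controls to 76.0, 76.4 and 76.7 in the treated samples. This fall of 0.37 on the log2 scale (limma adjusted p = 0.0466) was not called without control 1 or any 1 treated sample, and Hexa was called higher with quantile normalization (0.53, limma adjusted p = 0.023) and with the trend removed (0.51, 0.0259).

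Man2b1, the alpha-mannosidase gene, was 1.53-fold lower (limma adjusted p = 0.0176) and Gusb, the beta-glucuronidase gene, 1.29-fold lower (0.0451). Both calls were lost without any 1 of the treated samples, that of Gusb also without control 1, and Gusb was called higher with library size (log2 fold change 0.34). Glb1, encoding beta-galactosidase, stood at 30.1 ± 5.00 and 23.5 ± 0.528 FPKM, and Gla, encoding alpha-galactosidase A, at 24.1 ± 6.75 and 19.2 ± 0.809, and neither passed the test. Naglu encodes an N-acetylglucosaminidase of heparan sulfate breakdown. It stood at 38.2, 39.9 and 55.7 FPKM in the controls and 66.2, 62.5 and 57.1 in the treated samples. The groups did not overlap, although control 3 and treated 3 lay close (log2 change of 0.48 ± 0.17 SE, limma adjusted p = 0.0532). Without control 3 Naglu was called, as it was under the other 3 scalings with log2 fold changes of 1.22 to 1.30. The ratio of Naglu to Neu1 within a library was 0.529, 0.511 and 0.571 in the controls and 2.08, 2.05 and 1.80 in the treated samples, so the order of these 2 sugar-cleaving enzymes was inverted in all treated samples.

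Among the genes of sphingolipid hydrolysis, Psap makes prosaposin, the precursor of the saposins that present sphingolipids to their hydrolases. It had the highest mean FPKM of the 35 genes, at 911, 589 and 1503 FPKM in the controls and 383, 388 and 384 in the treated samples. The controls differed 2.55-fold among themselves and all lay above the treated samples (log2 change of -1.27 ± 0.34 SE, limma adjusted p = 0.0196). The call was lost without control 1 or any 1 treated sample, without a filter on low values, and under the 3 other scalings. The log2 fold change of Psap was -0.53 with library size, 0.09 with quantile normalization and -0.13 with the trend removed. Grn, the gene of progranulin, a secreted and lysosomal glycoprotein, had the smallest p. It went from 560.1, 526 and 600.3 FPKM in the controls to 365, 342 and 358 in the treated samples (-0.66 ± 0.13 SE, limma adjusted p = 0.00716). Grn was called higher with quantile normalization (0.58) and with the trend removed (0.43). Asah1, the acid ceramidase gene, was 1.63-fold lower (limma adjusted p = 0.00911), but it was called under none of the 3 other scalings. Its log2 fold change was 0.05 with library size, 0.14 with quantile normalization and -0.19 with the trend removed.

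Membrane and sterol proteins split between Npc2 and Cd63, which fell, and the rest. NPC2 is a small soluble protein of the lumen that picks up cholesterol and hands it to NPC1, a transporter in the membrane. Npc2 (chromosome 12, 84754562 to 84773152, minus strand) had the smallest p of all lysosomal genes tested. It stood at 345, 319 and 382 FPKM in the controls and 98.5, 105 and 103 in the treated samples. No control came near the treated samples, with a log2 change of -1.76 ± 0.13 SE (limma adjusted p = 0.000295). Npc2 was called lower under all 14 alternatives, with log2 fold changes from -1.82 to -0.70. Npc1, its membrane partner, averaged 10.2 ± 0.770 FPKM over controls and 11.3 ± 0.316 over treated samples (limma adjusted p = 0.28), and was called higher with library size (0.82). The ratio of Npc2 to Npc1 was 35.4, 28.8 and 39.1 in the controls and 8.44, 9.36 and 9.29 in the treated samples. The excess of Npc2 over Npc1 was thus smaller in every treated library than in any control.

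Cd63 encodes a tetraspanin of late endosomes and exosomes and had the highest mean level of its sub-group. Its values of 387, 261 and 717 FPKM in the controls all exceeded the 149, 153 and 124 of the treated samples (log2 change of -1.55 ± 0.37 SE, limma adjusted p = 0.0127). The call was lost without treated 3 and under the 3 other scalings, where the log2 fold change lay between -0.81 and -0.50. Cd63 also has a close copy, Cd63-ps, with 73.7 to 85.2 FPKM over controls and 40.8 to 49.8 in treated samples, so reads may be split between them. Gpnmb, a membrane glycoprotein, went from 60.6 ± 13.6 to 45.4 ± 0.963 FPKM with no overlap (limma adjusted p = 0.0961), and with quantile normalization it was called higher (log2 fold change 0.36).

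Lamp1 and Lamp2 encode the major proteins of the limiting membrane. Lamp1 stood at 128, 192 and 74.9 FPKM in the controls and 140.0, 135 and 142 in the treated samples. Lamp2 stood at 41.7, 59.0 and 22.1 in the controls and 41.9, 44.3 and 48.4 in the treated samples. For both, the treated samples sat between control 3 and control 2, and neither passed the test (log2 change of 0.18 ± 0.33 and 0.23 ± 0.34 SE, limma adjusted p = 0.669 and 0.585). With quantile normalization Lamp1 was called higher, at 1.15. Cd68, a heavily glycosylated relative of the LAMP proteins, spread most of all, at 132, 444 and 77.0 FPKM in the controls against 259.6, 242 and 245 in the treated samples (limma adjusted p = 0.441). Without control 2 it was called higher, as it was with the trend removed (log2 fold change 1.81). Mcoln1, the calcium channel TRPML1, stood at 3.94 ± 1.20 and 4.43 ± 0.245 FPKM. Scarb2, the receptor LIMP-2 that carries glucocerebrosidase to lysosomes, stood at 8.87 ± 1.06 and 8.63 ± 0.279 FPKM. Neither passed the test as deposited (limma adjusted p = 0.50 and 0.837), and both were called higher with library size, at 0.76 and 0.64.

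The proton pump was measured through 3 genes of the V0 sector, 4 of the V1 sector and the accessory subunit gene Atp6ap1. Only Atp6v0b passed the test. It encodes subunit c″ of the proteolipid ring (chromosome 4, 117884326 to 117887333, minus strand) and stood at 91.9, 79.3 and 114 FPKM in the controls and 40.6, 42.7 and 35.8 in the treated samples. It was the most abundant pump gene of the 8 in the control mean and was below Atp6v0c, Atp6v0d1, Atp6ap1 and Atp6v1a in the treated mean. This was a change of -1.23 ± 0.17 SE in log2 (limma adjusted p = 0.00166), and it was called lower under all 14 alternatives, between -1.35 and -0.43. Atp6v0c encodes the other proteolipid, subunit c, and stood at 57.6, 78.7 and 50.3 FPKM in the controls and 63.9, 52.8 and 58.5 in the treated samples. These groups overlapped throughout (-0.07 ± 0.19 SE, limma adjusted p = 0.777), with the reserve that a copy, Atp6v0c-ps2, was listed at 3.55 to 10.1 FPKM, and Atp6v0c was called higher with library size (0.67) and quantile normalization (0.70). The ratio of Atp6v0b to Atp6v0c was 1.60, 1.01 and 2.27 in the controls and 0.635, 0.808 and 0.612 in the treated samples. The 2 ring genes were level in control 2, Atp6v0b was the higher in control 1 and control 3, and it was the lower in all treated samples.

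The genes of V1 subunits A and B stood at similar levels. Atp6v1a, which encodes the ATP-splitting A subunit, stood at 42.8, 35.3 and 44.7 FPKM in the controls and 42.9, 43.6 and 44.3 in the treated samples. Atp6v1b2, which encodes the B subunit that alternates with it, stood at 42.5, 33.1 and 46.1 in the controls and 37.1, 36.9 and 40.0 in the treated samples. The A to B ratio was between 0.970 and 1.07 in controls and between 1.11 and 1.18 in treated samples. Neither gene passed the test at the deposited scaling (limma adjusted p = 0.538 and 0.673), and both were called higher with library size, at 0.83 and 0.65, and with quantile normalization, at 0.77 and 0.56. Atp6v1d, of the central shaft, had the smallest p among the pump genes with a positive change. It went from 10.2, 10.0 and 12.7 FPKM in the controls to 13.3, 14.6 and 14.4 in the treated samples, with no overlap (0.34 ± 0.12 SE, limma adjusted p = 0.0553), and was called without control 3, with library size (1.04) and with quantile normalization (0.52). Atp6v1h, a regulatory subunit gene, lay between 7.46 and 8.28 FPKM in all 6 samples as deposited and was called higher with library size (0.62). Atp6v0d1, which couples the sectors, spread from 24.5 to 63.5 FPKM in controls and from 48.1 to 49.5 in treated samples, and Atp6ap1 from 38.4 to 86.2 and from 47.0 to 50.8.

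Because a single factor per library does not move a difference between its genes, the sub-groups were also compared inside each library, as the mean log2 FPKM of a sub-group minus that of the pump. For the proteases this was 2.43, 2.37 and 2.47 in the controls and 1.59, 1.59 and 1.58 in the treated samples. The proteases thus lost 0.84 on the log2 scale relative to the pump, with an SD of 0.05 between controls. Scalings that act by level, such as quantile normalization, do move such differences. For sphingolipid hydrolysis and progranulin it was 3.38, 3.12 and 3.67 in the controls and 2.62, 2.64 and 2.64 in the treated samples, again with no overlap. The glycosidases lay at -0.30, -0.38 and 0.02 in the controls and -0.47, -0.51 and -0.54 in the treated samples. Membrane and sterol proteins lay at 0.54, 0.72 and 0.43 in the controls and 0.44, 0.42 and 0.40 in the treated samples, where the groups overlapped. These are descriptions of chosen genes, and no test was made over them. As a share of all reads at genes, the 35 genes together held 1.61%, 1.53% and 1.69% in the controls and 1.48%, 1.46% and 1.49% in the treated samples. In reads the proteases held 0.613% to 0.654% in controls and 0.547% to 0.561% in treated samples, and the pump 0.0875% to 0.111% and 0.145% to 0.152%. Glycosidases held a larger share of reads after treatment, with 0.0695% to 0.0752% in controls and 0.0855% to 0.0886% in treated samples. As a share of the FPKM total, which counts each gene per length, the order for the 35 genes was not the same, with 1.24%, 1.18% and 1.30% in the controls and 1.34%, 1.29% and 1.33% in the treated samples. On that measure the proteases overlapped between the groups (0.453% to 0.508% and 0.447% to 0.460%), and membrane and sterol proteins were at 0.246% to 0.300% in controls and 0.309% to 0.321% in treated samples. Glycosidases were at 0.0602% to 0.0667% of the FPKM total in controls and 0.0928% to 0.0970% in treated samples.

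**Figure D4:**
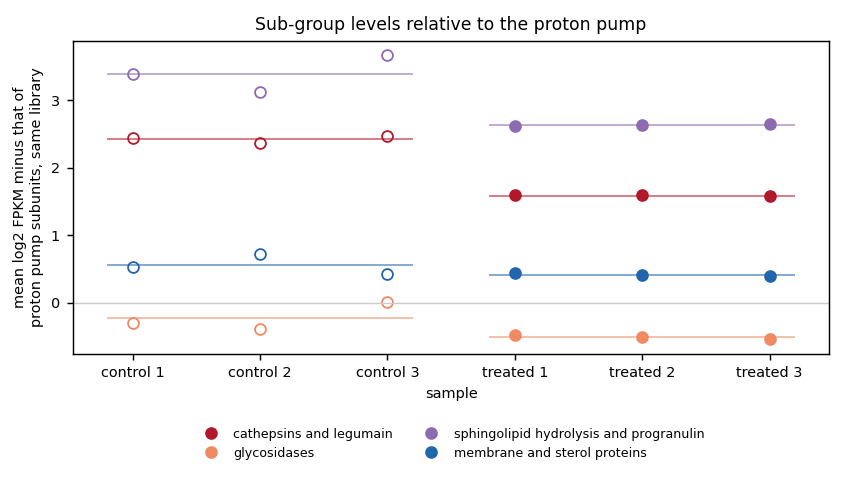
Mean log2 FPKM of each sub-group minus the mean log2 FPKM of the proton pump subunits in the same library, for the 6 samples (open circles for controls, filled circles for treated samples, lines for group means). Proteases drop from about 2.42 to 1.59 and the membrane and sterol proteins overlap between the groups.

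The falls were also set against the trend with abundance. Of the 16 genes that fell, Npc2, Neu1 and Atp6v0b were still called lower after the trend with GC content, gene length and level was taken out, at -0.91, -0.83 and -0.43, as did Ctsc, Man2b1 and Gusb at -1.16, -0.53 and -0.44. With that trend removed, the sub-group medians were -0.05 for the proteases, -0.13 for sphingolipid hydrolysis and progranulin, -0.09 for the glycosidases, 0.09 for membrane and sterol proteins and 0.36 for the pump. Of the 7 tested proteases only Ctsc was still called lower, with 0 higher. Hexa and Grn, also among the 16 genes that fell, were called higher there, at 0.51 and 0.43. Over all genes in that setting 22.9% were called lower and 22.3% higher.

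**Figure D5:**
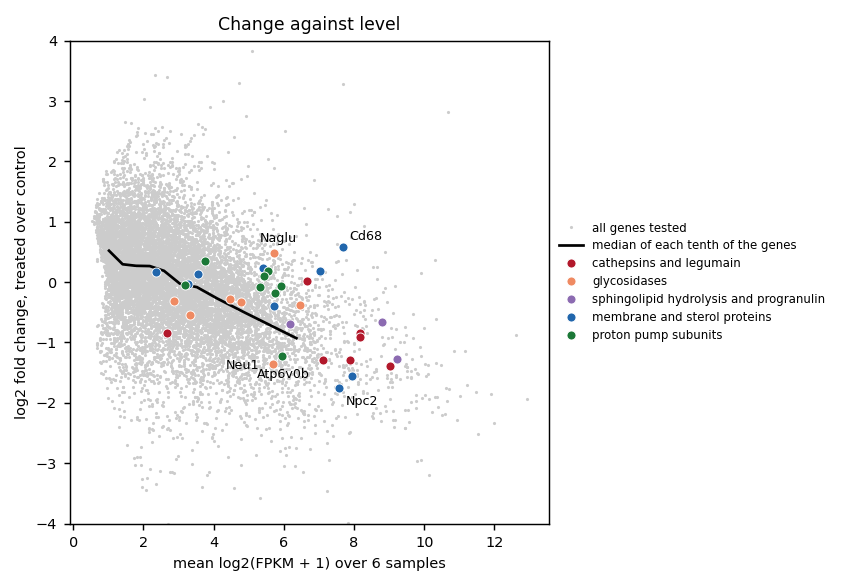
Log2 fold change against mean log2(FPKM + 1) over the 6 samples for all 11118 genes tested (grey; 16 lie beyond ±4 and are not shown), the median of each 10% of the genes (black line) and the lysosomal genes by sub-group. The line falls from 0.52 to -0.93, the abundant proteases lie near it, and Npc2, Neu1 and Atp6v0b lie below it while Naglu and Cd68 lie above.

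The controls of the lysosomal genes often took 1 of 2 orders. Control 2 was highest and control 3 lowest for 12 of the 34 tested genes, among them Lamp1, Lamp2, Cd68, Mcoln1, Ctsa, Atp6v0d1 and Atp6ap1. The reverse order held for 15, among them Psap, Cd63, Ctsz, Lgmn, Npc2 and Atp6v0b. These orders took 35.3% and 44.1% of the tested lysosomal genes, and 32.0% and 33.7% of all genes tested. Both orders were thus common over the whole series and not particular to these genes. Of the 16 genes that fell, 10 had control 3 highest and control 2 lowest and 3 the opposite order, whereas of the 18 not called 5 and 9 did. All genes were not split by call in this way, so these counts have no share to be set beside. Control 2 had 18988 genes above 0 FPKM, control 3 had 15829 and treated samples 21821 to 22088, and the part of this in the results was not tested.

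Promoters are shown because the lysosomal genes are known for a shared element. RefSeq windows on GRCm38.p6, from 250 bases before to 50 after the start, were given for 29 of the 35 genes, without Asah1, Atp6v1b2, Atp6v1h, Ctsb, Ctsh and Npc1. The E-box core CACGTG, which reads the same on both strands, was found in 12 of these 29 genes (41.4%), against 8.09% of all 27025 genes with a window and 12.2% of those among the genes tested. Its extension TCACGTGA, also the same on both strands and the core of the CLEAR element, was found in 6 of them (20.7%), namely Ctsa, Ctsd, Gla, Mcoln1, Atp6v0d1 and Atp6v1a, against 1.12% and 2.46%. The longer letters contain the shorter ones. By sub-group the E-box core was in 4 of 6 proteases, 3 of 7 glycosidases, 0 of 2 sphingolipid and progranulin genes, 2 of 8 membrane and sterol genes and 3 of 6 pump genes. Among genes that fell, 4 of 14 held it and 1 of 14 the CLEAR core, and among those not called 8 of 15 and 5 of 15. These are letter matches in short windows and no measure of binding.

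The sequences set genes that fell beside genes that did not, read on the strand of the gene, with CACGTG in capitals. Ctsd, Atp6v0b and Mcoln1 hold 2 matches each, of which 1 is shown. Ctsd lies at chr7:142387908-142387937 (minus strand) with a match 98 bases before the start, Lgmn at chr12:102439124-102439153 (minus) 49 bases before, and Atp6v0b at chr4:117887348-117887377 (minus) 36 bases before, and all 3 genes fell.
Ctsd: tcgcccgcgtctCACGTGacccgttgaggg
Lgmn: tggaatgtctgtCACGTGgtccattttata
Atp6v0b: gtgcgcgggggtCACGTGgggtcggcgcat
Naglu lies at chr11:101070009-101070038 (plus) with a match 73 bases before the start, Mcoln1 at chr8:3500462-3500491 (plus) 45 bases before, and Atp6v1a at chr16:44139373-44139402 (minus) 131 bases before, and none of these was called at the deposited scaling.
Naglu: caaccttcaggtCACGTGgcccgaggtcgg
Mcoln1: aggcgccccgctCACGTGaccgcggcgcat
Atp6v1a: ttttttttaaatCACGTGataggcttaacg
Lamp1, which was not called either, is shown over 73 bases at chr8:13159088-13159160 (plus), up to the base before its start, because it holds 4 matches, the most of any of these genes.
Lamp1: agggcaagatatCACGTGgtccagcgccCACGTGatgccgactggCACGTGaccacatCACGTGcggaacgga

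Further lysosomal genes were taken from lists by role, which do not hold every lysosomal gene. Of 35 further hydrolases and activators 28 were tested, 9 fell and 7 rose (32.1% and 25.0%, against 28.3% and 27.9% of all genes), with a median of -0.18. With library size 14 were higher and 0 lower, where 54.3% and 10.3% of all genes were. Hyal2, a hyaluronidase gene, had the smallest p among the rises, from 1.52 ± 0.199 to 7.66 ± 0.233 FPKM. Of 20 further membrane proteins 14 were tested, 8 rose and 1 fell (57.1% and 7.14%, against 27.9% and 28.3% of all genes), with a median of 0.58. Of these 14, 7 were among the less abundant 50% of genes tested, where medians over all genes were 0.19 to 0.52. Under the other scalings 6 to 10 were higher and 0 lower, where 22.3% to 54.3% of all genes were higher and 10.3% to 24.5% lower. Ostm1, the partner of the lysosomal chloride transporter, went from 0.875 ± 0.245 to 2.30 ± 0.220 FPKM, and Laptm4b from 83.1 ± 9.47 to 52.0 ± 3.30. Ostm1 was not called with the trend removed, and Laptm4b was called under none of the other 3. Of 14 further pump subunits 9 were tested, and Atp6v1f, Tcirg1 and Atp6ap2 fell while Atp6v1c1 rose. That was 33.3% lower and 11.1% higher, against 28.3% and 27.9% of all genes, with a median of -0.38. Atp6v1c1 was called higher under the other scalings too, but the 3 others were called lower under none of them, and Atp6v1f was called higher with the trend removed (0.45). As deposited, the median of the further pump subunits thus lay below that of the further hydrolases, the reverse of the order among the 35 genes. It also lay below with library size (0.36 and 0.46), but above with quantile normalization (0.25 and 0.05) and with the trend removed (0.33 and -0.12).

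Genes that deliver and control lysosomal enzymes were measured beside them. Of 6 delivery genes 5 were tested, 2 rose and 0 fell (27.9% and 28.3% of all genes did). Under the other scalings 3 to 5 of these genes were higher, where 22.3% to 54.3% of all genes were. Gnptab, which encodes the enzyme that starts the mannose 6-phosphate tag, went from 1.92 ± 0.692 to 4.40 ± 0.334 FPKM, and Nagpa, which uncovers that tag, from 1.88 ± 0.687 to 4.28 ± 0.575. The receptor gene M6pr stood at 46.6 ± 7.16 and 45.5 ± 1.67 FPKM (limma adjusted p = 0.898). In the TFEB family Tfeb fell, with 5.50 ± 0.726 FPKM in controls and 3.26 ± 0.165 after treatment (change of -0.60 ± 0.12 SE on the log2 scale, limma adjusted p = 0.0065), and Mitf rose from 0.915 ± 0.0652 to 3.17 ± 0.378 (1.12 ± 0.10 SE, limma adjusted p = 0.0005). Mitf was called under all 4 scalings, and Tfeb neither with library size (limma adjusted p = 0.99) nor with the trend removed (0.162). Tfe3 was not called, and Tfec was below the filter.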

How the data were processed

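PolyA-selected RNA from 6 samples was sequenced as paired reads of 150 bases, per the labels' protocols. The authors deposited FPKM per Ensembl gene and sample, with aligner, counter, strand setting and build not given in the sources used here. Symbols came from GENCODE M21. A gene was kept if 3 or more libraries reached 1 FPKM, and log2(FPKM + 1) was compared with limma 3.58.1 (R 4.3.3), with the variance trend and Benjamini-Hochberg adjustment over all 11118 genes. A fold change on this scale understates changes of low genes. The test was also run on simulated data: false calls kept to the nominal rate when both groups had the same spread, and exceeded it when each had its own spread as measured here. Reads per gene were recovered from the steps of the FPKM values, and all 35 genes came out whole within 0.05 reads. Alternatives were a pseudocount of 0.1, no filter, a minimum of 5 FPKM, 3 other scalings, sample weights, a replicate block and leaving out each sample. The GC, length and level trend was removed with splines over 10993 genes. The members and the other gene lists were chosen with earlier results of these data known. Genes named from the other lists had the smallest p in each direction, and 1 such gene is not reported here. Ratios and sub-group differences within a library carry no test, and 3 samples against 3 cannot give an exact permutation p below 0.1. No batch that divides the samples is listed, which does not show that the groups were processed together.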

Additional observations from a re-analysis of the deposited data

How the results depend on the processing

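Scaling had the widest effect. With library size only, 6032 of all genes were called higher and 1149 lower, and 10 lysosomal genes higher and 6 lower. The medians were then -0.23 for proteases, 0.37 for glycosidases, 0.048 for sphingolipid genes, 0.76 for membrane proteins and 0.66 for the pump. The log2 changes that turned positive were Hexa 0.37, Gla 0.44, Glb1 0.39, Gusb 0.34, Man2b1 0.13, Asah1 0.048, Grn 0.086, Scarb2 0.64, Gpnmb 0.35, Atp6v0c 0.67, Atp6v1b2 0.65, Atp6v1h 0.62 and Atp6ap1 0.55. With quantile normalization 9 were higher and 6 lower, with medians of -0.11, 0.10, 0.14 and 0.56 for proteases, glycosidases, sphingolipid genes and pump, and a protease minus pump difference of -0.66. There Ctsb 0.27, Ctsl 0.14, Hexa 0.53, Gla 0.10, Glb1 0.14, Asah1 0.14, Psap 0.091, Grn 0.58, Scarb2 0.028, Gpnmb 0.36, Mcoln1 -0.018, Atp6v0c 0.70, Atp6v1b2 0.56 and Atp6ap1 0.55 changed sign. With the trend removed 5 were higher and 6 lower, with medians of -0.052, -0.086, -0.13 and 0.36 and a difference of -0.41, and Ctsb 0.063, Ctsz 0.086, Hexa 0.51, Grn 0.43, Gpnmb 0.12, Mcoln1 -0.12, Atp6v0c 0.48, Atp6v1b2 0.37 and Atp6ap1 0.34 changed sign. The cause of these shifts was not tested. With a minimum of 5 FPKM, which tests fewer genes, 1385 of all genes were called higher, the protease median was -1.09 and the difference -1.04. A pseudocount of 0.1 gave -0.98 and -0.93. With no filter 12 lysosomal genes were called lower and with sample weights 15. Leaving out 1 sample gave 0 to 2 called higher and 10 to 18 lower, a protease median of -1.13 to -0.87, a membrane median of -0.15 to 0.20, a pump median of -0.12 to 0.054 and a difference of -1.13 to -0.83. The genes that changed sign when 1 sample was left out ranged from -0.34 to 0.32 for Ctsa, -0.17 to 0.50 for Lamp1, -0.15 to 0.54 for Lamp2, -0.095 to 0.054 for Scarb2, -0.041 to 0.32 for Mcoln1, -0.21 to 0.11 for Atp6v0c, -0.19 to 0.47 for Atp6v0d1, -0.0034 to 0.16 for Atp6v1a, -0.21 to 0.017 for Atp6v1b2 and -0.45 to 0.13 for Atp6ap1.

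Samples of the 2 groups share replicate numbers, but same-numbered samples did not deviate together (correlations -0.05, -0.11 and -0.14), so the numbers were not taken as pairs. With the replicate block 13 lysosomal genes were called lower and 0 higher, without Hexa, Gusb and Man2b1, and 2618 of all genes were higher and 2669 lower.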
